A study of Mus musculus with 17 samples.

Results

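The livers of 9 fat-fed mice were compared: those of 5 mice given 1 gavage of ethanol after 3 months of high-fat diet (HFD+1B) and of 4 mice given isocaloric maltose after the same diet (HFD), among 17 livers measured in all. The question was which transcripts in a fatty liver differ after an ethanol binge. The ethanol dose was 5 g/kg, livers were taken 9 hours after the gavage, and all mice were male C57BL/6, of the N substrain by the sample labels and of the J substrain by the methods. Both groups share the diet, the gavage, and the time of killing, and the labels name no allele, transgene, or further agent. The other 8 mice were fed chow and given maltose (chow, 4 mice) or the same ethanol dose (1B, 4 mice), and serve here only to set the ethanol difference on a high-fat diet beside that on chow. Each mouse gave 1 Agilent 2-colour array, on which its liver cDNA (Cy5) was set against a reference RNA common to all arrays (Cy3), with no dye swap, so a value is the log2 ratio of liver to reference and a difference is HFD+1B minus HFD unless said otherwise. All 43379 non-control spots entered, which gave 34664 probes with enough signal and, with the probe brightest in Cy5 taken for each gene, 19356 genes. As whole liver was used, fewer cells of a type and less RNA per cell cannot be told apart.

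Ethanol reaching the liver is oxidized to acetaldehyde and acetate by alcohol and aldehyde dehydrogenases, with a smaller part taken by the cytochrome P450 CYP2E1. The oxidation raises the ratio of NADH to NAD+, which slows fatty acid oxidation and gluconeogenesis. A large dose also triggers stress hormones, IL-6, and gut-derived bacterial products. The liver responds with metallothioneins, small metal-binding proteins, and with acute-phase proteins secreted into plasma, and hepatic stellate cells, the pericytes of the sinusoid, can turn contractile and deposit matrix.

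The difference reached many genes. At an adjusted p of at most 0.05 (limma, Benjamini-Hochberg over all 34664 probes), 2124 genes, 11% of those tested, were higher in HFD+1B than in HFD, and 1627 genes, 8.41%, were lower. With a change of at least 2-fold as well, 288 genes (1.49%) were higher and 104 (0.537%) were lower, so that 73.5% of these were rises. With each array centred on its median in place of loess, the same count was 93.8% rises, and that scaling moved the median of all genes from 0.01 to 0.14. The 5 HFD+1B and the 4 HFD mice did not overlap in 2969 of all 19356 genes. They did not overlap in 245 of the 288 rises and 96 of the 104 falls, which were chosen for a difference between these same mice, so nothing is read from those counts. Of the 5 slides 4 held 1 mouse of each group. Slide 2, with HFD mouse 2 and HFD+1B mouse 5, gave the smallest differences, with a median of 0.855 for the rises, against 1.39 to 1.78 on the other slides. Fewer dim probes than bright ones passed: among the dimmest 3872 genes 2.27% were higher and 2.53% lower, and among the brightest 3871 16.1% and 10.5%. The counts of gene lists below are to be read beside the 11% higher and 8.41% lower over all genes. Some genes stand in more than 1 list, such as Acta2, Ddit4, Cebpb, Cd14, Lcn2, and Cyp7a1, so the list counts are not independent.

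**Figure D1:**
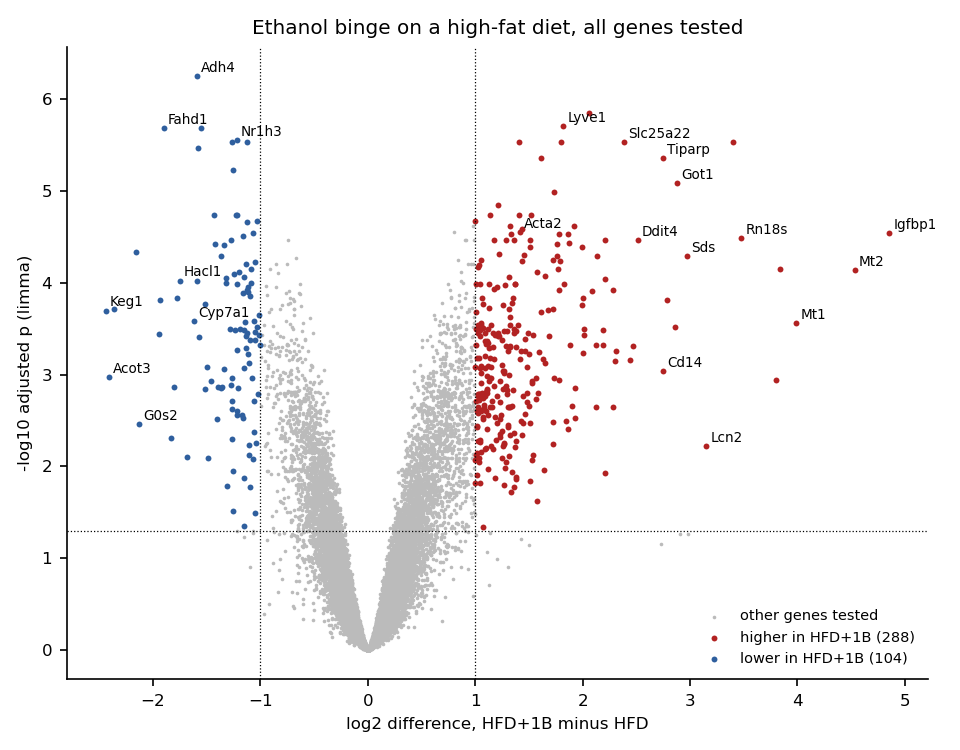
Difference between HFD+1B (5 mice) and HFD (4 mice) for each of 19356 genes, as log2 on the horizontal axis, against -log10 of the adjusted p from limma on the vertical axis. Dotted lines mark a 2-fold change and an adjusted p of 0.05. The 288 rises reach further from 0 than the 104 falls.

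Several features of the arrays moved with the groups. The hepatocyte marker albumin (Alb) differed by 0.24 with an adjusted p of 0.23, and both groups had it well above background on all arrays, as the tissue label says. From Cy5 signals alone Alb passed as lower in HFD+1B, so its direction depended on the scaling. Median Cy5 signals were 63 to 98 intensity units in HFD against 90 to 158 in HFD+1B. The mean of 5 probes for ribosomal RNA, log2 against the reference, was -3.81 to -2.15 in HFD against -1.03 to 1.12 in HFD+1B, without overlap, while chow mice had 0.22 to 0.59 and 1B mice -1.16 to 0.12. With this mean as a covariate no gene passed the adjusted p (0 higher and 0 lower, limma). The SEs were then a median of 2.37 times as large, and 75.3% of the 392 genes changed at least 2-fold kept their sign. Of 19356 genes 1390 had an unadjusted p under 0.05 in that limma fit, which chance alone gives in a share of 0.05. Every count and gene given below loses its call in that fit. Of 208 genes named, 31 lost their call in at least 1 fit that left out 1 mouse of these groups, and they are listed with the effects of processing. HFD mouse 3 was unlike the rest of its group in acute-phase genes, as given with them.

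Metallothioneins rose the most among genes with a value in every mouse. Mt1, which binds zinc and copper and is a classical target of the metal sensor MTF1 and of glucocorticoids, was at -2.31, -2.80, 0.24, and -3.41 in HFD mice 1 to 4 and at 2.45, 1.54, 1.96, 1.88, and 1.76 in HFD+1B mice 1 to 5. HFD mouse 3 lay well above the other HFD mice, but still below every HFD+1B mouse. The difference was 3.99 (SE 0.58, 15.9-fold, adjusted p = 0.00027). Mt2 was at -2.92, -3.14, -0.80, and -3.77 in HFD and at 2.14, 1.37, 2.09, 1.96, and 1.82 in HFD+1B, a difference of 4.53 (SE 0.56, 23.1-fold, adjusted p = 7.2e-05). The groups did not overlap, and the HFD+1B mice lay closer to each other than the HFD mice did. Both genes are alike in sequence, and what part of each probe's signal comes from the other gene cannot be told apart. The zinc importer Slc39a14, a target of IL-6, rose by 1.57 (SE 0.28, adjusted p = 0.0011), and the zinc exporter Slc30a1 was at 0.11 (adjusted p = 0.69). In all, 3 of 10 tested genes of a metallothionein and zinc list were higher and 0 lower.

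The promoters of both metallothionein genes lie side by side on chromosome 8 and are shown because no gene with a value in every mouse rose more. The stretches run from 250 bases before the RefSeq transcript start to 30 bases after it (GRCm38.p6, plus strand), at chr8:94178839-94179118 for Mt1 and chr8:94172368-94172647 for Mt2. Capitals mark the core of the metal response element, TGCACNC or TGCGCNC on either strand.
Mt1: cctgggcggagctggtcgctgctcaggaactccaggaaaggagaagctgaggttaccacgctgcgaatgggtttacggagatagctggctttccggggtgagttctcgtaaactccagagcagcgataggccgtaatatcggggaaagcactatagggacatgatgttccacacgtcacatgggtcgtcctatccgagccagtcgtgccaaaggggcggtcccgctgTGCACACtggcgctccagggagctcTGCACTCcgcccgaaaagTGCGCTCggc
Mt2: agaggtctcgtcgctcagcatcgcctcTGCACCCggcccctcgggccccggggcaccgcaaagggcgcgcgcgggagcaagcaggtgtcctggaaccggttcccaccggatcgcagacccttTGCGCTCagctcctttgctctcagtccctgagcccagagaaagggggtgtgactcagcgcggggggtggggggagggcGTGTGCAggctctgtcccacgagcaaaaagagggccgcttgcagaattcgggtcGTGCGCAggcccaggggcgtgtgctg
Mt1 held TGCACNC at -23 to -17 and at 3 to 9, counted from the transcript start, and TGCGCNC at 21 to 27. Mt2 held TGCACNC at -223 to -217 and at -50 to -44, and TGCGCNC at -128 to -122 and at 5 to 11, the second match of each on the minus strand. Of 32851 promoter stretches of the same length, 11.7% held TGCACNC and 14.4% TGCGCNC. A match is a description of the letters and not a site or a cause.

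Genes of the acute-phase list, many of them for proteins that the liver secretes into plasma in inflammation, rose as a group. Of 41 tested 16 were higher, 3 lower, and 22 did not pass, with a median of 0.82 against 0.01 over all genes. The list also holds the enzyme Tat, given below with the genes of amino acid breakdown. Lipocalin 2 (Lcn2), which withholds iron from bacteria, was at -2.99, -3.19, 0.71, and -3.25 in HFD mice and at 1.55, 0.32, 1.14, 1.13, and 0.73 in HFD+1B mice. HFD mouse 3 lay within the HFD+1B range, so the groups overlapped. Lcn2 rose by 3.15 (SE 0.72, adjusted p = 0.006). The fibrinogen chain Fgb rose by 1.64, the orosomucoid Orm3 by 1.56, the protease inhibitor Serpina3n by 1.58, and Lrg1 by 1.54, and of these only Orm3 had no overlap. Serum amyloid A1 (Saa1) was at -2.58, -2.51, 1.85, and -2.06 in HFD and at 2.80, -0.07, 1.94, 1.91, and 1.33 in HFD+1B, and its difference of 2.91 missed the threshold (SE 1.01, adjusted p = 0.054), and without HFD mouse 3 it was 3.96 (adjusted p = 0.0095). Orm1, Orm2, and Orm3, and Saa1 and Saa2, are near copies whose probes may share targets. The complement component C3, the tissue factor F3, and Cfb fell by 0.51, 0.46, and 0.33, though the median over the probes of C3 was higher in HFD+1B (0.37). Without HFD mouse 3 the list had 21 rises, and without HFD mouse 4 it had 10.

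The mean log2 level of the acute-phase list, relative to chow, was 0.0988 to 1.18 in HFD mice and 0.76 to 1.67 in HFD+1B mice, with HFD mouse 3 at the top of the first range. STAT3 is the transcription factor through which IL-6 acts on hepatocytes. Stat3 was at -1.35, -1.16, -0.84, and -1.37 in HFD and at 0.52, -0.16, 0.42, 0.39, and -0.05 in HFD+1B. No HFD mouse reached the lowest HFD+1B mouse, and the difference was 1.40 (SE 0.15, adjusted p = 1.8e-05). Its dimmer probe was at -0.085 (adjusted p = 0.77). Its feedback inhibitor Socs3 rose by 1.01 (adjusted p = 0.0025), the C/EBP factors Cebpb and Cebpd by 1.30 and 0.99, and the receptor chain Il6ra by 0.81. Of 22 tested genes of the IL-6 and STAT3 list 9 were higher and 1 lower, the receptor Lifr (-0.70, and 0.041 as the median over its probes), with a median of 0.41.

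Immediate early genes, transcription factors and feedback inhibitors that cells switch on within minutes of a stimulus, rose in larger share than any other list outside ribosomal RNA: 19 of 32 were higher and 0 lower, with a median of 0.69. Egr1, a zinc finger factor, was at -1.54, -1.37, -1.60, and -0.77 in HFD and at 1.32, -0.08, 0.75, 1.41, and 0.08 in HFD+1B, and rose by 2.02 (SE 0.30, adjusted p = 0.00032). Jund rose by 1.35, the Krüppel-like factors Klf10, Klf6, and Klf4 by 1.31, 1.13, and 1.07, and the mRNA decay factor Zfp36 by 1.23. Fos and Jun themselves rose little, by 0.42 and 0.27. The list mean was 0.06 to 0.20 in HFD mice and 0.653 to 1.14 in HFD+1B mice, without overlap.

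Genes of the p53 response and of growth arrest rose as well, 10 of 23 higher and 2 lower (Fas and Sesn3), with a median of 0.29. Cdkn1a, the p21 inhibitor of the cell cycle, was at -2.64, -1.84, -1.10, and -1.82 in HFD and at 0.63, 0.31, 0.88, 0.47, and 0.82 in HFD+1B. The groups lay apart, and Cdkn1a rose by 2.47 (SE 0.39, 5.54-fold, adjusted p = 0.00049). The mTORC1 inhibitor Ddit4 was at -1.72, -2.15, -2.37, and -2.29 in HFD and at 0.47, 0.13, 0.61, -0.12, and 0.81 in HFD+1B, a rise of 2.51 (SE 0.29, adjusted p = 3.4e-05). Btg2, an antiproliferative target of p53, rose by 2.30, and Gadd45g by 2.31. Mdm2 and Ccng1, direct targets of p53, rose by 0.40 and 0.29, and the median over the probes of Ccng1 was at -0.019. Tiparp, an ADP-ribosyltransferase induced by the aryl hydrocarbon receptor, rose by 2.75 (SE 0.25, adjusted p = 4.4e-06). Of 34 cell cycle genes, 3 rose and 6 fell, with 5 helicase subunits of replication (Mcm2, Mcm3, Mcm4, Mcm6, and Mcm7) and Tk1 as the falls. The 6 falls were 3 without HFD mouse 4, and the call of Mcm4 was lost with the replicate number as a block (-0.35, adjusted p = 0.097).

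The integrated stress response, in which ATF4 drives genes of amino acid supply, rose in part. Of 30 tested genes 8 were higher (26.7%, against 11% of all genes) and 1 lower, with a median of 0.20. The list mean, relative to chow, was 0.03 to 0.145 in HFD mice and 0.374 to 0.53 in HFD+1B mice. Chac1, which degrades glutathione, rose by 1.88 (SE 0.30, adjusted p = 0.00047), from -1.63 to -0.86 in HFD to -0.02 to 1.21 in HFD+1B. Atf4, Ddit3 (CHOP), Asns, and Trib3 were at 0.02, -0.22, -0.04, and 0.37, with adjusted p of 0.91, 0.22, 0.88, and 0.17. Of 31 chaperones and folding enzymes of the endoplasmic reticulum 5 rose and 3 fell, with a median of -0.02, and without HFD mouse 4 there were 2 rises.

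Genes of amino acid breakdown and of the fasting response included the largest rise of all. Igfbp1, a secreted binder of IGF with strong induction by fasting and stress, had values in only 2 HFD mice after outlier spots were left out, -3.42 and -3.51, and was at 2.09, 0.44, 1.76, 1.79, and 0.88 in HFD+1B. It rose by 4.85 (SE 0.45, 28.9-fold, adjusted p = 2.9e-05). Tyrosine aminotransferase (Tat) was at -1.51, -2.09, and -2.52 in the 3 HFD mice with a value and at 1.35, -0.36, 1.20, 0.96, and 0.58 in HFD+1B, and rose by 2.79 (SE 0.37, adjusted p = 0.00015). No HFD mouse reached the HFD+1B range in either gene. Serine dehydratase (Sds), which feeds serine into gluconeogenesis, rose by 2.97 (SE 0.35, adjusted p = 5.2e-05), and cytosolic aspartate aminotransferase (Got1) by 2.88 (SE 0.28, adjusted p = 8.2e-06). Got1 was at -2.29, -2.15, -2.60, and -2.89 in HFD and at 0.42, -0.19, 0.71, 0.06, and 0.97 in HFD+1B. The glucocorticoid targets Fkbp5 and Sgk1 rose by 1.22 and 0.80. G6pc, the last enzyme of gluconeogenesis, was at 1.30 with wide spread (SE 0.57, adjusted p = 0.12), and the coactivator Ppargc1a at 0.23 (adjusted p = 0.37). In all, 6 of 33 gluconeogenic and glucocorticoid genes were higher (18.2%, against 11% of all genes) and 2 lower, with a median of 0.18. With the replicate number as a block 7 were lower, and without HFD mouse 4 there were 0.

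Chac1 is a known ATF4 target and Got1 an enzyme of amino acid supply, and their promoters were searched for TGATGNAAN, a core of the composite C/EBP and ATF element, which is shown in capitals. The stretches are chr2:119350992-119351271 (plus strand) and chr19:43524576-43524855 (minus strand), GRCm38.p6, with the same span around the RefSeq start.
Chac1: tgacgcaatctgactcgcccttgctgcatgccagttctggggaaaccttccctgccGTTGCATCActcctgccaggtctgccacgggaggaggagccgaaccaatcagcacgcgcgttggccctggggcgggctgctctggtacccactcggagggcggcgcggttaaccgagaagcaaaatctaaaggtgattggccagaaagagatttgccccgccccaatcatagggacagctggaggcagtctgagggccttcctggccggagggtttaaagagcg
Got1: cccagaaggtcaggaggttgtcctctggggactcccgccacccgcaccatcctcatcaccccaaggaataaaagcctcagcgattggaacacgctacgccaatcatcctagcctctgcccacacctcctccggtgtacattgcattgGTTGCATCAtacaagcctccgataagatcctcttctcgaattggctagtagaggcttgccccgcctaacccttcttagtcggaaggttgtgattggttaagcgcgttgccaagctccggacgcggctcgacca
Each held 1 match, on the minus strand of the gene, at -194 to -186 in Chac1 and at -103 to -95 in Got1. Of all promoter stretches 3.79% held one.

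Inflammation markers moved unevenly. The neutrophil chemoattractant Cxcl1 was at -0.16, -0.86, 0.08, and -1.53 in HFD and at 1.90, 0.17, 1.78, 1.51, and 0.18 in HFD+1B. HFD+1B mice 2 and 5 lay just above the highest HFD mouse, and Cxcl1 rose by 1.72 (SE 0.39, 3.3-fold, adjusted p = 0.0057). The granule proteins S100a8 and S100a9, abundant in neutrophils, rose by 0.91 and 0.89 (adjusted p = 3.4e-05 and 0.0055), and S100a8 was at -0.71 to -0.32 in HFD against 0.26 to 0.60 in HFD+1B. The S100a8 probe was among the dimmest 3872 genes and well above background on only 3 HFD arrays. Hdc, which makes histamine and is expressed in neutrophils and mast cells, rose by 1.33. Other neutrophil genes did not follow: the granule enzymes Mpo and Elane were at 0.19 and 0.01, the receptor Cxcr2 at -0.05 (and 0.52 by a dimmer probe, adjusted p = 0.024), the integrin chain Itgam at -0.04, and the receptor Csf3r fell by 0.90. Of 32 neutrophil genes tested 5 rose (15.6%, against 11% of all genes) and 1 fell, with a median of 0.04 whose sign changed with the scaling. Without HFD mouse 4 the rises were 3. The mean of that list, relative to chow, was -0.03 to 0.22 in HFD against 0.16 to 0.24 in HFD+1B, so the groups overlapped.

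Among 26 genes of neutrophil recruitment 6 rose and 1 fell. The selectins Selp and Sele rose by 0.42 and 0.35, and the chemokine Cxcl12 fell by 1.29 (adjusted p = 0.00032). The chemokines Cxcl2 and Ccl2 were at 0.15 each (adjusted p = 0.29 and 0.36), and the adhesion molecule Icam1 at 0.00. Among receptors of the innate response, the lipopolysaccharide coreceptor Cd14 was at -2.18, -2.45, -1.70, and -2.33 in HFD and at 0.89, -0.52, 0.24, 2.90, and -0.57 in HFD+1B. HFD+1B mouse 4 lay well above the other 4, and Cd14 rose by 2.75 (SE 0.47, adjusted p = 0.00092). The IL-1 receptor Il1r1 rose by 1.78. Of 30 genes of toll-like receptor and IL-1 signaling 7 rose and 0 fell, and there were 3 rises without HFD mouse 1 and 4 without HFD mice 2 or 4 or HFD+1B mice 1 or 4. Macrophage genes did not rise beyond the share of all genes, with 2 of 24 higher (Cd14 and Cd9), and the Kupffer cell markers Clec4f, Cd68, and Adgre1 were at 0.20, 0.09, and -0.45 with adjusted p of 0.28, 0.79, and 0.083. With the replicate number as a block Adgre1 passed (-0.48, adjusted p = 0.044).

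Interferon-stimulated genes moved the other way: 8 of 28 fell and 0 rose, with a median of -0.22. Ifit3 was at 0.77, 1.15, 0.41, and 1.18 in HFD and at -0.27, 0.01, -0.09, -0.66, and -0.18 in HFD+1B, and fell by 1.12 (SE 0.15, adjusted p = 0.00011). Ifit1, Cxcl10, and Isg15 fell by 0.93, 0.77, and 0.71. The 8 falls were 5 without HFD mouse 2, HFD mouse 4, or HFD+1B mouse 1, 4 with median centring (median -0.017), and 3 from Cy5 signals alone. Of 9 MHC class II genes 0 passed in either direction in limma, and 0 had an unadjusted p under 0.05, while 1 fell with the slide or the replicate number as a block.

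Genes of contraction and the actin cytoskeleton rose, and the brightest probes of the main fibrillar collagens Col1a1, Col1a2, and Col3a1 did not pass. In which cells of the liver the contractile genes rose was not tested. Alpha smooth muscle actin (Acta2), the marker of activated stellate cells, was at -0.34, -0.56, -0.64, and -0.97 in HFD and at 0.99, 0.85, 0.45, 0.97, and 0.67 in HFD+1B. The groups lay apart, and Acta2 rose by 1.41 (SE 0.15, 2.66-fold, adjusted p = 2.8e-05). That value is of its brightest probe, and its 3 other probes did not pass (0.32, 0.09, and -0.06, with adjusted p of 0.097, 0.67, and 0.82). Of 44 contractile and cytoskeletal genes 19 rose and 0 fell, with a median of 0.30. They included the smooth muscle genes Tagln (0.72), Actg2 (0.57), Myl9 (0.54), and Myh11 (0.52), the focal adhesion proteins Vcl (1.05) and Zyx (0.48), and genes that hepatocytes also express, Myh9 (0.99), Actb (0.83), Krt8 (0.88), and Krt18 (0.82). The list mean was 0.195 to 0.383 in HFD against 0.555 to 0.851 in HFD+1B. The stellate activation and TGF-beta list had 15 rises and 2 falls among 35 genes, with a median of 0.41. Its rises included angiotensinogen (Agt, 1.54), the activin antagonist Fst (1.34), the receptor Tgfbr2 (1.12), the ligand Tgfb3 (0.77), and the protease inhibitors Timp1 and Timp2 (0.59 and 0.63), and the activin subunits Inhbe and Inhba fell by 1.68 and 0.70. The call of Timp2 was lost with the replicate block (0.47, adjusted p = 0.2). Tgfb1 was at 0.08 (adjusted p = 0.78).

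Col1a1, the main chain of type I collagen, was at -0.31, -0.20, 0.79, and 0.02 in HFD and at -1.76, 0.38, -0.25, and 1.20 in the 4 HFD+1B mice with a value. The HFD+1B mice spread more widely than the HFD mice and enclosed them, and the difference was -0.18 (SE 0.43, adjusted p = 0.82). Col1a2, Col3a1, and Col4a1 were at 0.51, 0.11, and 0.18, with adjusted p of 0.35, 0.79, and 0.3. A dimmer probe each of Col1a1 and Col4a1 rose, by 1.37 and 0.89 (adjusted p = 0.0498 and 0.0042), and other probes of Col27a1, Col5a3, and Col4a6 did not pass. Of 41 collagens 7 rose (17.1%, against 11% of all genes) and 2 fell (Col27a1 and Col5a3). The 7 rises, among them Col4a6 and Col13a1, were 4 without HFD mouse 4 or HFD+1B mouse 2 and 3 without HFD+1B mouse 4. The collagen median was 0.08 and changed sign with the scaling. Of 45 genes of matrix and remodeling 7 rose (15.6%, against 11% of all genes) and 0 fell, with the basement membrane protein Nid1 (0.92), thrombospondin 1 (Thbs1, 0.82), and Adamts1 (0.77) in front. Markers of quiescent stellate cells did not fall: 4 of 20 rose (Vipr1, Hand2, Hgf, and Des), and Lrat, which esterifies retinol in these cells, was at 0.09 (adjusted p = 0.82). Those 4 rises were 1 without HFD+1B mouse 4.

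The promoter of vinculin (Vcl), which ties actin to focal adhesions and whose dimmer probe was at -0.17 (adjusted p = 0.51), is shown because actin genes as a group rose and the CArG box, the element of serum response factor, is its textbook feature. It lies at chr14:20929148-20929427 (GRCm38.p6, plus strand), with the match in capitals.
Vcl: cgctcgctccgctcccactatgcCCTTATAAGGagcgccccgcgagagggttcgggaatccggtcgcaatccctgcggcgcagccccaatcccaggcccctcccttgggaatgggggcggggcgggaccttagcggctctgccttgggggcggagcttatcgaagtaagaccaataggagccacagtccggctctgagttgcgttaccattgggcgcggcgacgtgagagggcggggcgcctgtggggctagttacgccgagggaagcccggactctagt
The match ran from -227 to -218, and 1.56% of all promoter stretches held one.

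A list of 22 tested genes held those that the study measures, targets, or mentions, with the neutrophil integrin chains Itgam and Itgb2 added. It was drawn up with the study's results known, so it is no independent support for a direction. Of them 7 rose and 0 fell: Cxcl1, Acta2, Il17f (0.61), Il15 (0.52), the NADPH oxidase subunit Ncf1 (0.42), Hgf (0.41), and Des (0.32), and without HFD mouse 4 or without HFD+1B mouse 4 the rises were 4. The call of Hgf was lost with the replicate block (0.39, adjusted p = 0.072). Besides those given above, Col5a2, Col12a1, Csf2, Egf, Pparg, and Itgb2 did not pass. The probe of Il3 was not well above background on any of 4 HFD arrays. Il17a and Csf3 were well above background on 0 of 17 arrays and were not tested, and no probe matched Ly6g.

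**Figure D2:**
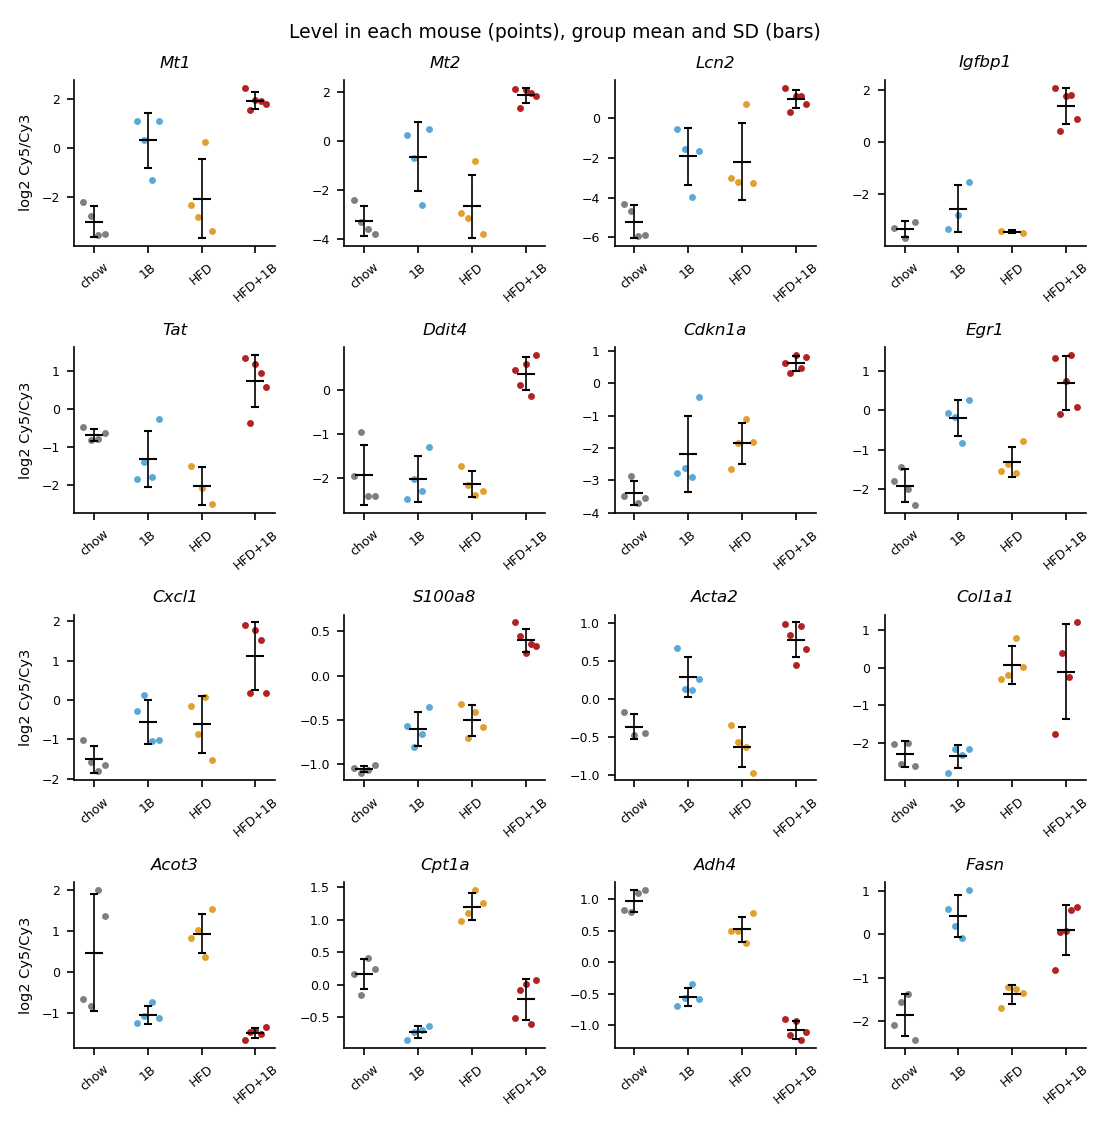
Log2 ratio of liver to reference for 16 genes in each mouse of the 4 groups (chow, 1B, HFD, and HFD+1B), with the group mean and SD as bars and 1 point per mouse. Mt1, Mt2, and Lcn2 show HFD mouse 3 far above the other HFD mice, Acta2 and Adh4 show groups that lie apart, and Col1a1 shows a wide spread in HFD+1B.

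Fatty acid oxidation genes fell. PPAR-alpha is the nuclear receptor that switches on this pathway when fatty acids reach the liver. Of 51 genes of the PPAR-alpha and fatty acid oxidation list 19 fell and 1 rose, with a median of -0.32. Acot3, a peroxisomal acyl-CoA thioesterase, was at 0.83, 1.01, 0.37, and 1.52 in HFD and at -1.66, -1.46, -1.43, -1.50, and -1.33 in HFD+1B, and fell by 2.41 (SE 0.42, adjusted p = 0.0011). Acot4 and Acot1, of the same gene cluster and partly alike in sequence, fell by 1.94 and 1.83. Cpt1a, which brings fatty acids into mitochondria, was at 0.98, 1.10, 1.47, and 1.26 in HFD and at -0.51, -0.09, 0.01, -0.61, and 0.07 in HFD+1B, and fell by 1.43 (SE 0.15, adjusted p = 1.8e-05). In both genes every HFD+1B mouse lay below every HFD mouse. Ppara itself fell by 1.39. The exception was Plin5, which ties lipid droplets to mitochondria and rose by 1.32. Pdk4 was at 0.13 (adjusted p = 0.75). Without HFD mouse 4 the falls were 12, and with median centring of the arrays 10.

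Lipogenic genes rose in part. Fatty acid synthase (Fasn) was at -1.69, -1.22, -1.27, and -1.36 in HFD and at -0.82, 0.04, 0.07, 0.57, and 0.62 in HFD+1B, and rose by 1.48 (SE 0.28, adjusted p = 0.0016). HFD+1B mouse 1 lay closest to the HFD mice. Lpin1, a phosphatidate phosphatase and coactivator, rose by 2.19, the lipogenic factor Thrsp by 2.09, and ATP citrate lyase (Acly, with values in 2 HFD mice) by 1.79. Srebf1, Acaca, and Scd1 were at 0.62, 0.37, and 1.20, with adjusted p of 0.22, 0.16, and 0.1. Of 29 tested genes 7 rose and 3 fell, and Nr1h3, which encodes the sterol receptor LXR-alpha, was at 0.22 to 0.56 in HFD against -1.05 to -0.68 in HFD+1B and fell by 1.22 (SE 0.10, adjusted p = 2.8e-06). Of 27 lipid droplet genes 5 rose and 5 fell, and without HFD mouse 2 or HFD+1B mouse 4 there were 3 rises. G0s2, the inhibitor of the lipase ATGL, fell by 2.13, and that lipase (Pnpla2) and its activator Abhd5 rose by 0.57 and 0.56. The dimmer probe of Abhd5 was at -0.0077 (limma adjusted p = 0.98), and that of Pnpla2 rose by 0.89. Plin2 and Cidec, droplet coat proteins, were at -0.77 and 0.28 (adjusted p = 0.084 and 0.71), and Plin2 passed with the replicate number as a block (-0.84, adjusted p = 0.044).

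Of 26 genes of cholesterol synthesis 11 fell and 2 rose, with a median of -0.31. The falls ran along the pathway from Hmgcs1 (-1.15), Mvk (-0.67), and Mvd (-0.96) to Fdps (-0.82), Fdft1 (-0.99), and the sterol demethylation enzyme Msmo1, which was at 0.20 to 1.53 in HFD against -0.82 to -0.63 in HFD+1B (-1.59, adjusted p = 9.5e-05). Insig1, given below, was among the rises. Without HFD mouse 3 or 4 the falls were 6, and with median centring 5. Cyp7a1, the rate-limiting enzyme of bile acid synthesis, was at 0.29, 0.30, -0.57, and 0.09 in HFD and at -1.40, -1.50, -1.66, -2.06, and -1.35 in HFD+1B, and fell by 1.62 (SE 0.23, adjusted p = 0.00026). Of 32 bile acid genes 10 fell, the bile acid receptor Nr1h4 (FXR) and its target Nr0b2 (SHP) among them, and 1 rose, the uptake transporter Slc10a2 (1.92, adjusted p = 2.4e-05). Of 22 genes of LXR and sterol efflux 7 fell and 1 rose, the cholesterol exporter Abca1 (1.51). Of 24 apolipoprotein genes 9 fell by 0.40 to 1.32, and 1 rose, Apob. The medians of the bile acid, LXR, and apolipoprotein lists were -0.14, -0.13, and -0.21 and turned positive under at least 1 other scaling.

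Enzymes that handle ethanol itself fell, 7 of 14, and none rose (0 of 14). Adh4, a class of alcohol dehydrogenase that also oxidizes retinol, had the smallest adjusted p of all genes tested. It was at 0.50, 0.49, 0.31, and 0.79 in HFD and at -0.91, -1.16, -0.94, -1.24, and -1.11 in HFD+1B, and fell by 1.59 (SE 0.11, adjusted p = 5.6e-07). Cyp2e1 fell by 0.81 with overlap, Aldh3a2 by 0.79, and Aldh1a1 by 0.57. The main hepatic enzymes Adh1 and Aldh2 were at -0.26 and -0.17 (adjusted p = 0.15 and 0.63). Without HFD+1B mouse 4 the falls were 4, and with median centring of the arrays 2. Of 57 xenobiotic genes 13 fell and 2 rose, with a median of -0.27, and the xenobiotic receptor Nr1i3 (CAR) fell by 1.37 (adjusted p = 5.2e-05). The 13 falls were 8 without any 1 of HFD mice 1 and 4 and HFD+1B mice 2 and 4. Targets of the oxidative stress factor NRF2 went both ways, 6 of 39 higher and 8 lower. Hmox1 rose by 0.68, Osgin1 fell by 1.32, and Nqo1 was at -0.25 (adjusted p = 0.32). The NRF2 counts moved with single mice, to 1 to 3 rises without HFD mice 1 or 4 or HFD+1B mice 2, 3, or 4, and 4 falls without HFD mouse 2.

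Vascular, secretory, and rhythmic genes moved too. In sinusoidal endothelium 6 of 26 marker genes fell and 3 rose, so the list did not move as 1 cell type. The hyaluronan receptor Lyve1 was at -1.31, -1.38, -1.42, and -1.36 in HFD and at 0.18, 0.72, 0.25, 0.67, and 0.42 in HFD+1B, and rose by 1.82 (SE 0.15, adjusted p = 2e-06). The VEGF receptor Kdr fell by 1.23 and the lectin Clec4g by 0.80. Of 43 complement and coagulation genes 5 rose, among them thrombomodulin (Thbd, 2.14), and 11 fell, among them C8b (-1.36) and C9 (-0.75), and the 11 falls were 5 to 7 without HFD mice 2 or 4 or HFD+1B mice 2 or 4. The clock output gene Dbp fell by 1.80, and Nfil3, also of the circadian clock list, rose by 1.29. The core clock genes Arntl, Per1, and Per2 were at -0.11, 0.51, and 0.03 (adjusted p = 0.64, 0.11, and 0.93). Of 26 genes of growth hormone and IGF 1 rose and 5 fell. Keg1 fell by 2.44 (adjusted p = 0.0002) and Igfals by 1.16, and Igf1 was at 0.21 (adjusted p = 0.25).

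Other lists are given by their counts, beside 11% higher and 8.41% lower over all genes. Of 81 oxidative phosphorylation genes 0 rose and 4 fell (7 with the slide or the replicate number as a block), of 79 cytosolic ribosomal protein genes 2 rose and 4 fell, and of 43 proteasome genes 2 rose and 7 fell. The 7 proteasome falls were 1 without HFD mouse 4, and the 4 falls of oxidative phosphorylation were 8 without HFD+1B mouse 5. Of 18 T and NK cell, 11 B cell, and 10 erythroid markers 2, 2, and 1 rose. Of 24 markers of hepatocyte identity 3 rose and 6 fell. Keratins, most of which are not expressed in liver, had 10 rises and 0 falls among 40, and under Cy5 signals alone 3 rises.

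Counts of lists moved with the scaling of the arrays, as did those of all genes. With median centring 3682 of all genes were higher and 450 lower, and from Cy5 signals alone 788 and 417. Under median centring the falls were 1 of complement and coagulation genes, 1 of NRF2 targets, 2 of apolipoproteins, 5 of xenobiotic genes, 5 of bile acid genes, 3 of LXR and sterol efflux genes, 2 of cell cycle genes, 2 of lipid droplet genes, 2 of hepatocyte markers, and 0 of the oxidative phosphorylation, ribosomal protein, and proteasome lists. The rises were then 14 of gluconeogenic and glucocorticoid genes, 17 of matrix and remodeling genes, 12 of collagens, 12 of lipogenic genes, 11 of toll-like receptor and IL-1 genes, 9 of chaperones of the endoplasmic reticulum, and 8 of cell cycle genes. From Cy5 signals alone the rises were 6 of acute-phase genes, 7 of contractile genes, 7 of stellate activation genes, 5 of IL-6 and STAT3 genes, 2 of collagens, and 2 of the genes of the study, and the falls were 11 of PPAR-alpha genes and 4 of cholesterol synthesis. The immediate early list stayed within 1.5 times of its 19 rises under all 5 scalings.

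Small counts also moved with single mice and with the replicate block. The 4 ribosomal protein falls were 0 without HFD mouse 4, 1 without HFD mouse 3 or HFD+1B mice 1 or 2, and 2 without HFD+1B mouse 4. The proteasome falls were 2 to 4 without HFD mouse 3 or HFD+1B mice 1, 3, or 4, and the falls of oxidative phosphorylation 7 without HFD mouse 1. Rises of T and NK cell markers were 0 or 1 without any 1 of 7 of the 9 mice and 4 with the replicate block, those of erythroid markers 0 without HFD mice 1, 3, or 4 or HFD+1B mice 2 or 4, and those of B cell markers 1 without HFD mouse 3 or HFD+1B mouse 4. The 3 cell cycle rises were 5 or 6 without HFD mouse 2, without HFD+1B mouse 5, or with the block. The 3 acute-phase falls were 0 without HFD mouse 4 and 5 with the block, and the 1 fall of the integrated stress response was 0 without HFD mice 1, 2, or 4 or HFD+1B mice 2 or 4, 2 without HFD+1B mouse 5, and 3 with the block. The 3 sinusoidal rises were 5 without HFD+1B mouse 3 or with the slide as a block. The 4 rises of quiescent stellate markers were 2 without HFD mice 3 or 4 or HFD+1B mouse 2, and the 5 rises of endoplasmic reticulum chaperones 3 without HFD mouse 2 or HFD+1B mouse 4. With the block 1 gene fell in each of the contractile, macrophage, metallothionein and zinc, and quiescent stellate lists.

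Of 208 genes named, 82 had several tested probes. Of 65 of these with a call, all probes passed in the same direction in 33, and in 32 at least 1 other probe did not, as in Apob, Kdr, Myh9, Tgfbr2, Zfp36, Fdps, Hmgcs1, and Hmox1. In Lifr another probe passed in the opposite direction (0.27, adjusted p = 0.04). Of 17 genes without a call 8 had another probe that passed, among them the lipogenic Acaca, with 4 dimmer probes that rose by 0.61 to 1.07, Adh1 (-0.43, adjusted p = 0.0089), Ppargc1a (0.40, adjusted p = 0.0099), Igf1 (-0.56, adjusted p = 0.023), and Per2 (-0.51, adjusted p = 0.025).

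**Figure D3:**
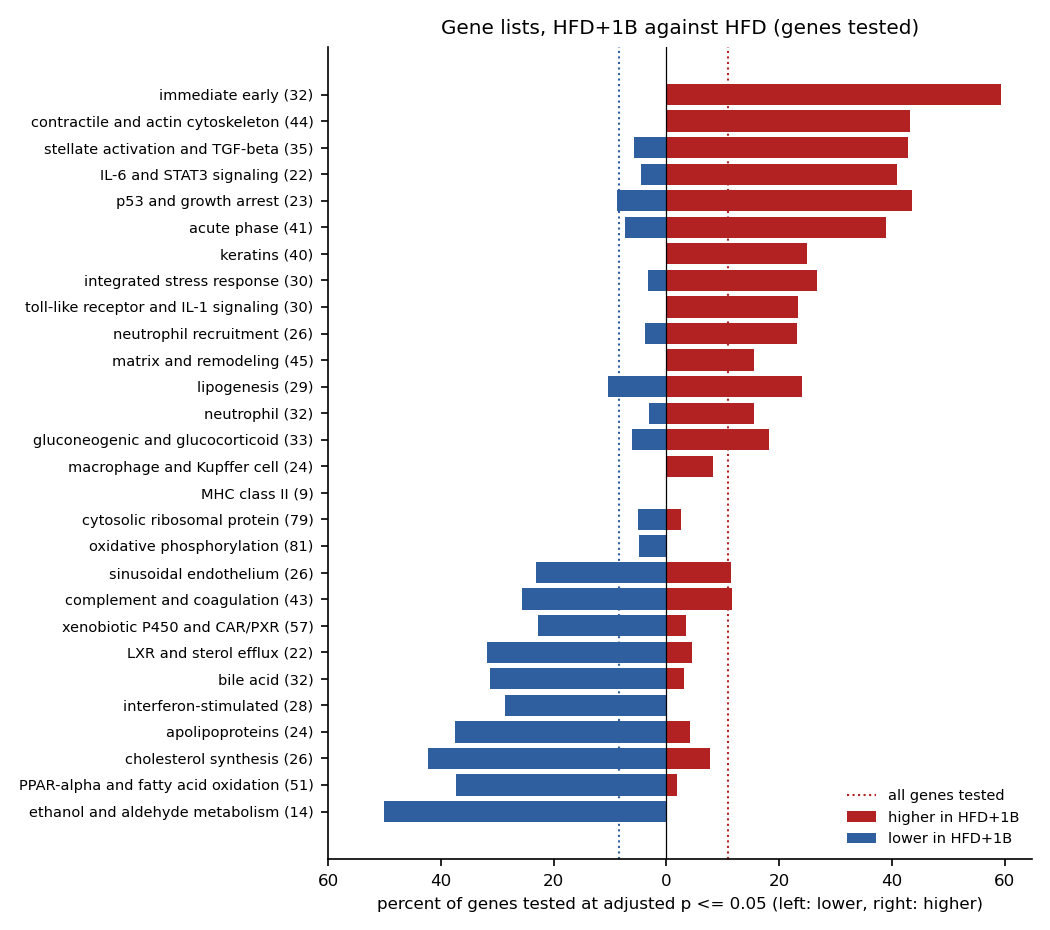
Share of tested genes at an adjusted p of at most 0.05, to the right for genes higher and to the left for genes lower in HFD+1B than in HFD, for 28 gene lists with the number tested in brackets. Dotted lines mark the shares over all 19356 genes, 11% and 8.41%. Immediate early and contractile genes extend furthest to the right among lists without falls, and ethanol metabolism, cholesterol synthesis, apolipoprotein, and PPAR-alpha lists furthest to the left.

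The ethanol difference on chow, from the 8 other mice, was smaller in number. At an adjusted p of at most 0.05, 404 genes (2.09%) were higher and 394 (2.04%) lower in 1B than in chow. Of the 288 genes that rose at least 2-fold on the high-fat diet, 56 (19.4%) were also higher on chow and 3 lower, and their median was 1.30 on the high-fat diet and 0.21 on chow. Of the 104 that fell, 42 (40.4%) were also lower on chow and 1 higher, with medians of -1.22 and -0.60. Counted at 2-fold on both diets, 39 genes rose in both, 13.5% of those on the high-fat diet and 35.5% of the 110 on chow, and 20 fell in both, 19.2% and 27% of the 74 on chow. Over all genes, which are not independent replicates, the log2 differences on both diets had a Pearson r of 0.313 and a Spearman rho of 0.182.

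Genes of metal binding, ethanol oxidation, and fat oxidation were among those that moved on both diets. On chow Mt1 rose by 3.30 and Mt2 by 2.63, Lyve1 by 1.96, Egr1 by 1.71, and Adh4 fell by 1.52, Cpt1a by 0.89, and Msmo1 by 1.87, all past the threshold in 1B against chow. Of the PPAR-alpha list, 16 of 51 fell on chow. The difference of the differences (interaction, in the same fit) was positive at an adjusted p of at most 0.05 for 517 genes (2.67%) and negative for 333 (1.72%), and 986 and 751 with the replicate number as a block. Igfbp1 differed between the diets most among genes outside ribosomal RNA that are named here, with an interaction of 4.05 (adjusted p = 0.0059), followed by Tat (3.44, 0.003) and Insig1 (3.38, 0.003). Ddit4 (2.60), Sds (2.46), Btg2 (2.43), and Got1 (1.66) also had positive interactions. Cebpb rose by 1.30 on the high-fat diet and was at -0.81 on chow (adjusted p = 0.051), an interaction of 2.11 (adjusted p = 0.0024).

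Some genes fell on the high-fat diet and did not pass on chow. Cyp7a1 was at 0.16 on chow (adjusted p = 0.9) and -1.62 on the high-fat diet, an interaction of -1.77 (adjusted p = 0.013). Hacl1, a peroxisomal lyase of branched-chain fatty acids, was at 0.00 on chow and fell by 1.75 on the high-fat diet. Paqr9 and Arrdc3 had interactions of -2.37 and -1.89. Chaperones of the endoplasmic reticulum went the other way, with 6 of 31 higher on chow, a median of 0.46 on chow and of -0.02 on the high-fat diet, and 4 negative interactions. Creld2 rose by 1.69 on chow and was at -0.42 on the high-fat diet (adjusted p = 0.34), an interaction of -2.11 (adjusted p = 0.015).

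**Figure D4:**
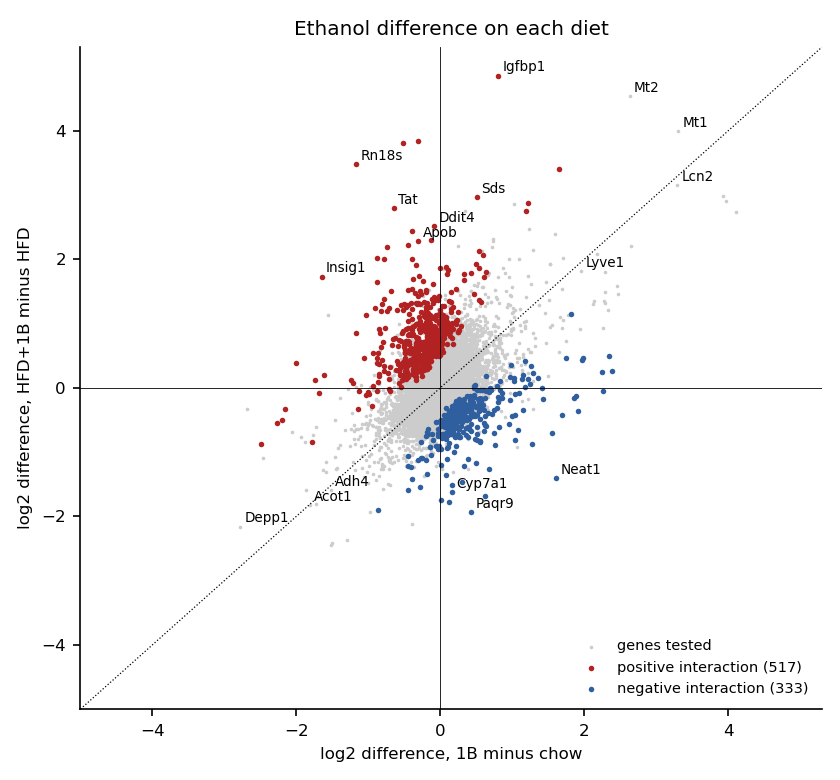
Log2 ethanol difference of each gene on chow (1B minus chow, horizontal) and on the high-fat diet (HFD+1B minus HFD, vertical), with the 517 positive and 333 negative interactions at an adjusted p of at most 0.05 coloured and the line of equal differences dotted. Mt1, Lcn2, Adh4, and Lyve1 lie near the line, and Igfbp1, Rn18s, and Insig1 above it.

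Some rises on the high-fat diet started from a level in HFD far below that in chow. 18S ribosomal RNA (Rn18s) was at -2.53, -2.11, -3.94, and -3.51 in HFD and at 1.00, 0.46, 0.51, 1.10, and -0.77 in HFD+1B. HFD lay below all other groups, whose means were 1.01 in chow, -0.16 in 1B, and 0.46 in HFD+1B, against -3.02 in HFD. The rise was 3.48 (SE 0.39, adjusted p = 3.3e-05) and the interaction 4.65 (adjusted p = 0.0015). Rn45s, the precursor, and Rn28s1 had the same order, with rises of 3.84 and 1.65 and interactions of 4.15 and 2.53. Apob, the structural protein of very-low-density lipoprotein, was at -2.49, -1.53, -3.75, and -2.83 in HFD and at 0.05, 0.59, -1.44, 0.43, and -1.46 in HFD+1B, with means of 0.12 in chow and -0.19 in 1B. It rose by 2.28 (SE 0.44, adjusted p = 0.0022), but by 0.07 on slide 2 against 2.31 to 3.26 on the other slides with both groups. Insig1, which holds back sterol sensing, was at -1.64, -1.60, -3.12, and -3.02 in HFD and at -0.13, -0.55, -1.19, 0.33, and -1.55 in HFD+1B, and rose by 1.73 (SE 0.36, adjusted p = 0.0032), though by 0.05 on slide 2. Both genes follow the order of the mice in ribosomal RNA in part: HFD mouse 3 was lowest in all 3, and HFD+1B mouse 5 lowest in all 3 of its group. Whether ribosomal RNA signal had a part in these differences was not tested beyond the covariate.

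The nuclear long noncoding RNA Neat1, the scaffold of paraspeckles, had the opposite order, with means of -1.51 in chow mice, 0.10 in 1B mice, 1.05 in HFD mice, and -0.36 in HFD+1B mice. It was at 0.56, 0.52, 2.10, and 1.00 in HFD and at -0.44, 0.23, -1.03, -0.34, and -0.21 in HFD+1B. Neat1 fell by 1.40 on the high-fat diet (SE 0.29, adjusted p = 0.0031) and rose by 1.61 on chow (adjusted p = 0.0049), an interaction of -3.02 (adjusted p = 0.0019). Malat1, its neighbour on chromosome 19, rose by 1.02.

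**Figure D5:**
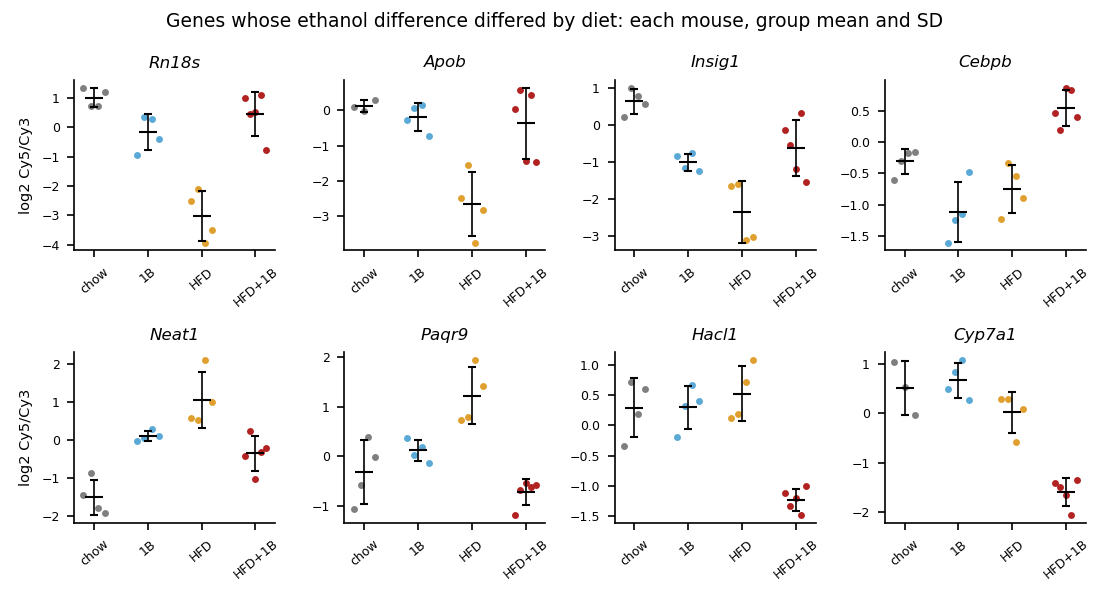
Log2 ratio of liver to reference for 8 genes with an interaction, in each mouse of the 4 groups, with the group mean and SD as bars and 1 point per mouse. Rn18s, Apob, and Insig1 are lowest in HFD, Neat1 and Paqr9 are highest there, and Hacl1 and Cyp7a1 are low only in HFD+1B.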

How the data were processed

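Livers of 17 mice were measured on Agilent 2-colour mouse arrays, 1 per mouse. The authors extracted spots with Feature Extraction 11.5.1.1 (array annotation mm9, per the file headers). The deposited scanner files hold raw median spot and background intensity of both channels, processed intensity after background subtraction and dye normalization, and its log10 ratio, which was not tested. The authors also deposited a table of log2 ratios of Cy5 over Cy3 for 41174 probes, which equalled the log2 ratio of the processed signals (largest difference 2.7e-06 over 40901 probes of 1 spot) and served as an alternative.

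Intensities were corrected with normexp (offset 50), outlier spots were left out, each array's ratios were normalized by loess, and replicate spots were averaged per probe. Probes entered when well above background in Cy5 on at least 4 of 17 arrays, with a value in each group (25 probes lacked one), which left 3424 missing values. Where a mouse lacks a value the fit used the other mice. The 4 group means were estimated from the 17 arrays in limma 3.58.1 (lmFit and eBayes, 13 residual degrees of freedom) in R 4.3.3, and p-values were adjusted by Benjamini-Hochberg over the 34664 probes tested, after which each of 19356 genes was taken by its brightest probe. A symbol was found for 35356 probes and an accession in RefSeq for 28378. Promoters came from RefSeq (GRCm38.p6). The script was tested on simulated data. Precision is limited by the number of arrays, and p-values measure the spread between mice. The methods' t-test and other settings were run as alternatives.

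Replicate numbers were checked for pairing: deviations of HFD and HFD+1B mice of the same number from their group means correlated over genes at 0.486, 0.187, 0.131, and 0.189 for numbers 1 to 4. Every correlation exceeded 0.1, the rule set for pairing, but correlations between mice of different number are not given beside them. The labels do not say what a number shares. The main fit held no block for the number, so all main counts and p-values are unpaired. Fits with the replicate number as a block are given as an alternative. HFD and HFD+1B mice of numbers 1, 3, and 4 shared a slide, and those of number 2 did not. HFD+1B mouse 5 has no partner by number and was on the slide of HFD mouse 2.

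The comparison, the 57 gene lists, and the tests were chosen with earlier results of these data known. Genes were named by a rule: the 15 largest rises and falls with a value and signal on all 9 arrays, the 3 largest called differences of each list, a list of genes from the study's text with Itgam and Itgb2 added, and the 5 largest interactions of each sign among the first. Of 208 genes named, 100 lie outside the rule and were chosen after their values were seen. A few genes are not reported here.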

Additional observations from a re-analysis of the deposited data

Results flagged for a closer look

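For 41 named genes the interaction of ethanol and diet in limma passed an adjusted p of 0.05, 24 with a larger value and 17 with a smaller value on the high-fat diet. Ribosomal RNA led the positive ones, with Rn18s at 4.65, Rn45s at 4.15, and Rn28s1 at 2.53. Among stress and fasting genes the interaction was 4.05 for Igfbp1, 3.44 for Tat, 2.60 for Ddit4, 2.46 for Sds, 2.43 for Btg2, 1.81 for Chac1, 1.66 for Got1, 1.56 for Tiparp, and 0.47 for Ccng1. Among transcription factors and decay factors it was 2.14 for Zfp36, 2.11 for Cebpb, 1.23 for Jund, and 1.17 for Klf6. Lipid and sterol genes had 3.38 for Insig1, 2.59 for Apob, and 1.43 for Slc10a2. Agt, of the stellate activation and TGF-beta list, had 1.32, and in which cells was not tested. Contractile and inflammatory genes had 0.97 for Il17f, 0.91 for Myh9, 0.76 for Hdc, and 0.69 for Myl9.

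Negative interactions were -3.02 for Neat1, -2.37 for Paqr9, -2.31 for Inhbe, -2.25 for Inhba, -2.11 for Creld2, -1.89 for Arrdc3, -1.85 for Fdps, -1.77 for Cyp7a1, -1.75 for Hacl1, and -1.44 for C8b. Smaller ones were -1.04 for Dnaja1, -1.03 for Fahd1, -0.87 for Nr1h4, -0.82 for Kdr, -0.78 for Col27a1, -0.77 for Nr1h3, and -0.70 for F3. Neat1 fell on the high-fat diet and rose on chow (adjusted p in limma of 0.0031 and 0.0049).

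In 28 of 402 gene and group pairs 1 mouse stood apart from the rest of its group by Dixon's test, which chance does in about 1 of 20. HFD mouse 3 was that mouse in 10 of them. It was high in the acute-phase genes Saa1 (1.85), Fgb (1.52), Saa2 (1.47), Lrg1 (0.73), Lcn2 (0.71), and Serpina3n (0.45), and in Plin2 (1.62) and Slc39a14 (-0.36), and low in Igfals (-0.52) and Ccl2 (-0.19). Other HFD mice that stood apart were mouse 1 in S100a9 (-0.0012), mouse 2 in Aldh3a2 (1.17) and Il17f (-0.57), and mouse 4 in Depp1 (2.10) and Col5a3 (0.57). Among HFD+1B mice, mouse 1 stood apart in Fgb (2.19), Per2 (0.59), Klf4 (-0.55), Paqr9 (-1.18), and Arrdc3 (-1.43), mouse 2 in Clec4f (0.57) and Sds (-0.17), and mouse 3 in Nid1 (0.20) and Fas (-0.027). Mouse 4 stood apart in Thbs1 (1.44) and Clec4g (-1.28), and mouse 5 in Sesn3 (-0.077) and Slc30a1 (-0.12).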

How the results depend on the processing

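The counts of 288 genes higher and 104 lower stayed within 1.5 times without background subtraction, with an offset of 16, with Aquantile after loess, with no filter or a stricter filter on dim probes, with the slide as a block, with array weights, and with the gene median over probes. They were 636 and 42 with median centring, 735 and 385 from the authors' table, 1096 and 491 at a fold of 1.5, and 2124 and 1627 with no fold threshold, and the methods' t-test on each gene after Benjamini-Hochberg left 135 higher genes. With the ribosomal RNA mean as a covariate all 4 counts were 0. Positive and negative interactions, 517 and 333 as given, were 1104 and 79 with median centring and 136 and 23 from Cy5 alone, and negative ones were 529 with the slide as a block. The replicate block gave 986 and 751 interactions and 372 higher and 115 lower genes. It ended the calls of Hgf, Mcm4, and Timp2, brought Adgre1 and Plin2 past the threshold, and changed no other named call. The cause of these shifts was not tested.

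Leaving out 1 mouse gave 240 to 372 higher genes, 95 to 119 lower genes, 239 to 777 positive interactions, and 156 to 490 negative ones. Positive interactions moved over 1.5 times without chow mice 1 (309), 3 (284), or 4 (239), 1B mouse 1 (250), HFD mice 3 (317) or 4 (272), or HFD+1B mice 4 (340) or 5 (777). Negative ones did so without chow mice 1 (156), 3 (192), or 4 (156), 1B mice 1 (192), 2 (199), or 4 (220), HFD mice 3 (184) or 4 (157), or HFD+1B mouse 4 (201). Of 208 named genes 172 kept their side of the threshold in all 9 of these fits of HFD and HFD+1B mice. A call was lost in at least 1 of them by 31 genes: Arg1, C3, C9, Ccng1, Cfb, Cyp2e1, Des, F3, Fdps, Hand2, Hgf, Hmgcs1, Hmox1, Il15, Il6ra, Inhba, Jun, Krt18, Mcm4, Mcm6, Mdm2, Ncf1, Orm1, Orm2, Osgin1, Pnpla2, Sele, Serpina3n, Thbs1, Timp2, and Tk1. A call was gained by 5: G6pc, Hamp, Saa1, Saa2, and Srebf1. Cy5 alone ended 49 named calls and the methods' t-test after adjustment 84. A fit of the HFD and HFD+1B arrays alone ended 23, and median centring 19.

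Directions reversed for C3 (0.37), Ccng1 (-0.019), and Lifr (0.041) with the gene median over probes and for Alb (-0.52) from Cy5 alone. With the ribosomal RNA covariate they reversed for Apob (-0.58), Insig1 (-0.52), Thbs1 (-0.49), Il17f (-0.41), Rn28s1 (-0.40), Il15 (-0.35), Mdm2 (-0.34), Socs3 (-0.31), Rn45s (-0.19), Col4a6 (-0.16), Vcl (-0.14), Hand2 (-0.14), Ncf1 (-0.044), Tgfb3 (-0.027), Fdps (0.085), and Inhba (0.28). Differences of dim probes are compressed by construction, since 50 intensity units are added to each channel and the median raw Cy5 signal was as low as 63 (HFD mouse 4).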

Other observations

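Some of the largest changes on the high-fat diet lay outside the pathways given above. Cldn14, a tight junction protein, was at -2.29, -2.46, -1.66, and -2.47 in HFD and at 1.98, -0.86, 1.35, 1.07, and -0.31 in HFD+1B, and rose by 2.86 (SE 0.43, limma adjusted p = 0.0003). The mitochondrial glutamate carrier Slc25a22 rose by 2.39 (adjusted p = 2.9e-06) and also rose on chow, by 1.59. Of 33 genes of autophagy and lysosome 6 rose (18.2%, against 11% of all genes) and 5 fell, with the autophagy kinase Ulk1 first (1.41, adjusted p = 2.9e-06). The falls were 2 without HFD mouse 3 or HFD+1B mice 2 or 4, 3 without HFD mice 2 or 4 or HFD+1B mouse 1, and 0 with median centring. Among the falls, Paqr7 was at -2.37, Depp1, a target of FOXO factors, at -2.16, and Fahd1, a mitochondrial hydrolase, at -1.90 (adjusted p = 2.1e-06). In Depp1 and Fahd1 all 5 HFD+1B mice lay below all 4 HFD mice, at -1.54 to -0.06 against 1.13 to 2.10, and at -1.36 to -0.69 against 0.65 to 1.10.

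Of 40 genes of the urea cycle and amino acid breakdown 8 rose and 6 fell. The falls were 3 without HFD+1B mice 2 or 4, 10 without HFD+1B mouse 3, and 1 with median centring. Beside Sds and Tat, the mitochondrial ornithine carrier Slc25a15 rose by 1.63, the nicotinamide methyltransferase Nnmt by 1.93 with overlap, and arginase (Arg1) by 0.56. Ido2, which breaks down tryptophan, fell by 1.22 (adjusted p = 1.8e-05), and its dimmer probe was at -0.042 (adjusted p = 0.9). Of 25 cytosolic heat shock genes 5 rose and 5 fell, and the falls were 1 without HFD mouse 4, 2 without HFD mouse 2 or HFD+1B mice 1 or 2, 3 without HFD mouse 3 or HFD+1B mouse 4, and 1 with median centring. The cochaperone Dnaja1 was at 0.37 to 0.64 in HFD against -0.71 to -0.15 in HFD+1B and fell by 0.94 (adjusted p = 0.00014). The iron hormone hepcidin (Hamp) was at -2.27 to -0.37 in HFD against -2.10 to 1.36 in HFD+1B, and its difference of 1.13 did not pass (adjusted p = 0.2).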
